A study of Mus musculus with 27 samples.

Results

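The 77 genes described here encode the protein subunits of the mitochondrial ribosome that carry an Mrpl or Mrps symbol in the mouse. They were taken from the 45195 genes of the raw count table as protein-coding genes whose Ensembl identifier maps to Mrpl or Mrps followed by a number and at most 1 letter, with pseudogenes left out. Of 78 such symbols 77 had a row, and Mrpl33 was not analysed here. By subunit, 50 belong to the large subunit and 26 to the small subunit. The remaining gene, Mrps36, encodes a protein now assigned to the 2-oxoglutarate dehydrogenase complex.

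The mitochondrial ribosome translates the few mRNAs of the mitochondrial genome, whose products are membrane subunits of the respiratory chain and of ATP synthase. All of its proteins are encoded in the nucleus, made by cytosolic ribosomes and imported. Part of them descend from bacterial ribosomal proteins and part are specific to mitochondria, and among the 76 subunit proteins considered here these classes hold 45 and 31 genes. Differentiating neurons are known for a growing reliance on respiration, and the mRNAs of these proteins are one nuclear component of that capacity.

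The series followed adult neurogenesis over 4 stages. Neural stem cells, called NSC, and the early neuroblast stage, ENB, were taken from the subventricular zone (SVZ), and the late neuroblast stage, LNB, and the neurons from the olfactory bulb (OB). Male mice on a C57BL/6 background, aged 8 to 12 weeks, carried the Rpl22.HA allele (RiboTag, which adds an HA epitope to a cytosolic ribosomal protein after recombination) and eYFP, with CreER driven by Tlx (TiCRY line) or by Dcx (DiCRY line). Tamoxifen was given by gavage at 200 mg per kg body weight. Total mRNA came from 200 to 500 sorted eYFP-positive cells of 1 to 2 mice per library, with 3 libraries each for NSC, ENB, LNB and Neuron. Ribosome-bound mRNA came from an anti-HA immunoprecipitation of tissue homogenate without sorting, with 3 libraries for LNB and 2 for each other stage. Controls were the same immunoprecipitation from SVZ or OB tissue without HA, with 3 libraries each. The library descriptions name TiCRY animals for NSC and DiCRY animals for ENB and LNB, whereas the Neuron libraries carry the name Dxc with the mark 4wpi, which is not expanded in the labels. A tagged cell population is therefore whatever the Tlx or Dcx driver had recombined. One label field of both Neuron ribosome-bound libraries reads total mRNA and they carry the sorting text, so they were grouped by title. Every comparison with ribosome-bound Neuron mRNA rests on this grouping, which was not tested.

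Total mRNA libraries held 5225929 to 15994635 counts, ribosome-bound libraries 6325479 to 13316334 and controls 5960357 to 9120659, and the 77 genes together took between 0.271% and 0.517% of the counts of a library. Summed neural stem cell markers, 6 genes, reached 3178 to 4103 CPM (counts scaled to library size) in NSC total mRNA against 550 to 761 in ENB. Among the LNB libraries they varied from 812 to 7370, and the highest passed every NSC library. Neuroblast markers stood at 9250 to 9936 CPM in ENB total mRNA. In ribosome-bound ENB they stood at 1254 to 2794, against 353 to 476 in the SVZ controls. The 5 oligodendrocyte markers summed to 18722 to 18917 CPM in ribosome-bound ENB, within the 16503 to 21642 of the SVZ controls. In ribosome-bound NSC they summed to 7333 to 7779. None of the 5 was at 0 in any of these groups, and the part of such cells in the results was not tested. In these bulk samples, fewer cells of a type and less RNA per cell cannot be told apart.

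Promoters are shown for 4 members because they hold letters of 2 factors, NRF1 and the ETS family (to which NRF2/GABP belongs), that are known for activating nuclear genes of mitochondrial proteins. A RefSeq window of 300 bases around the start (GRCm38.p6) was found for 68 of the 77 genes, in 74 windows. The NRF1 letters (GCGC, any base, TGCGC), read on both strands, stood in 13 of the 74 windows (17.6%) and in 4.6% of all 32851 windows. The ETS letters CCGGAAG stood in 25 (33.8%) against 8.86%, and the YY1 letters AAGATGGCG in 8 (10.8%) against 1.40%. These are matches of letters and not measured binding. The last 120 bases before the start are printed, with the NRF1 letters in capitals for Mrpl12 (chr11:120484517-120484636, plus strand) and Mrpl17 (chr7:105811088-105811207, minus strand). ETS letters are in capitals for Mrpl34 (chr8:71464806-71464925, plus strand) and Mrpl52 (chr14:54426789-54426908, plus strand), the 2 members with the widest range between stages in total mRNA.
Mrpl12: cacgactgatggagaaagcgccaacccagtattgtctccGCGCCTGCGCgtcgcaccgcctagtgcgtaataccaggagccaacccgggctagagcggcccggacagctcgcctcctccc
Mrpl17: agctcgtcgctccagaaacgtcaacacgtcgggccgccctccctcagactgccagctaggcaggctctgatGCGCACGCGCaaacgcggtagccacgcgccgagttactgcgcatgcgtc
Mrpl34: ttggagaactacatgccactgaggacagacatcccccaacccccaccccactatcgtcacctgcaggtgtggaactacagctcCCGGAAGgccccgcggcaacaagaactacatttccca
Mrpl52: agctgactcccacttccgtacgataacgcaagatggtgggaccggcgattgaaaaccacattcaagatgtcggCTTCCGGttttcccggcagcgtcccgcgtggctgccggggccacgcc

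Levels of different genes were compared in TPM, transcript shares that allow for gene length. Over the 12 total mRNA libraries the median of the 76 genes that passed the filter on low counts was 79.1 TPM, with quartiles of 52.9 and 120 TPM. Mrps21, a small-subunit protein of bacterial type, was highest at a mean of 310 TPM, with a range of 231 to 420 over the libraries. Next came Mrpl52 at 274 TPM, Mrps33 at 256, Mrpl42 at 228 and Mrpl30 at 216. The ranges of these 5 genes overlapped, so their order is not fixed by these data. The lowest levels were those of Mrpl35 at 15.3 TPM, Mrpl1 at 16.8, Mrpl57 at 18.1, Mrpl19 at 18.9 and Mrps31 at 22.4. Mrpl35, Mrpl1 and Mrpl19 are large-subunit proteins of bacterial type, Mrpl57 is specific to the mitochondrial large subunit and Mrps31 to the small one. The order was similar in stem cells and neurons (Spearman's rho of 0.88 over the 76 genes, which share libraries and length scaling) and in total and ribosome-bound mRNA of neurons (0.93).

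The count table holds Mrpl53, a large-subunit protein specific to mitochondria, at 2 counts in 1 of the 27 libraries and at 0 in the others, and it failed the filter. The 76 tested genes are thus 49 of the large subunit, 26 of the small subunit and Mrps36. In the authors' expected counts the same gene has 214 to 1596 counts per library, and its TPM ranged from 56.5 to 255. Its gene (chromosome 6, 83109108 to 83109932, GRCm38.p6) overlaps Ccdc142 by 14 bases. The raw counts of the 77 genes summed to a median of 58.5% of the expected counts, and 9 genes lay under 50%. After Mrpl53, the lowest shares were 22.5% for Mrps33, 28.5% for Mrps18c and 31.7% for Mrps36. Mrpl47 was the one gene above 100%, at 136%. How the raw counts treated reads that fit more than 1 gene is not given in the sources used here, so raw levels of these members are uncertain, and the cause of the gaps was not tested.

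**Figure D1:**
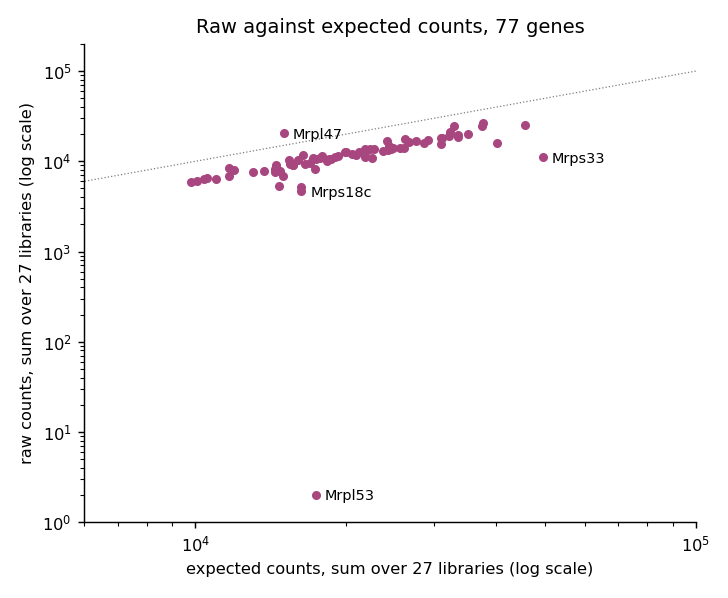
Each point is 1 of the 77 genes, with its expected counts summed over the 27 libraries on the horizontal log axis and its raw counts on the vertical log axis; the dotted line marks equal counts. Mrpl53 stands alone at 2 raw counts, Mrps33 and Mrps18c lie under the main band and Mrpl47 above the line.

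As a group, the mRNAs had their highest summed level in stem cells in total mRNA, while in ribosome-bound mRNA they were lowest in early neuroblasts. The summed level in total mRNA was 4657 ± 81.4 CPM (SD, n = 3) in NSC, 4039 ± 91.7 in ENB, 3929 ± 355 in LNB and 3562 ± 88.7 in Neuron. The 3 NSC libraries lay above all others. LNB libraries, at 3616 to 4314, overlapped those of ENB and of Neuron, which did not overlap each other. That separation depends on the scaling, since the summed TPM was 6459 to 7450 in ENB and 6584 to 7292 in Neuron, while NSC stayed highest at 7500 to 9286. In ribosome-bound mRNA the sum was 4455 ± 420 CPM (n = 2) in NSC, 2813 ± 273 (n = 2) in ENB, 3951 ± 346 (n = 3) in LNB and 4896 ± 412 (n = 2) in Neuron. The NSC libraries, 4157 to 4752, overlapped those of Neuron, 4605 to 5188, and of LNB, 3581 to 4267, and both ENB libraries lay under all of them. The controls stood at 3185 ± 450 CPM (n = 3) in SVZ and 2829 ± 201 (n = 3) in OB. CPM of total libraries and of immunoprecipitates were scaled apart and are not set against each other.

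**Figure D2:**
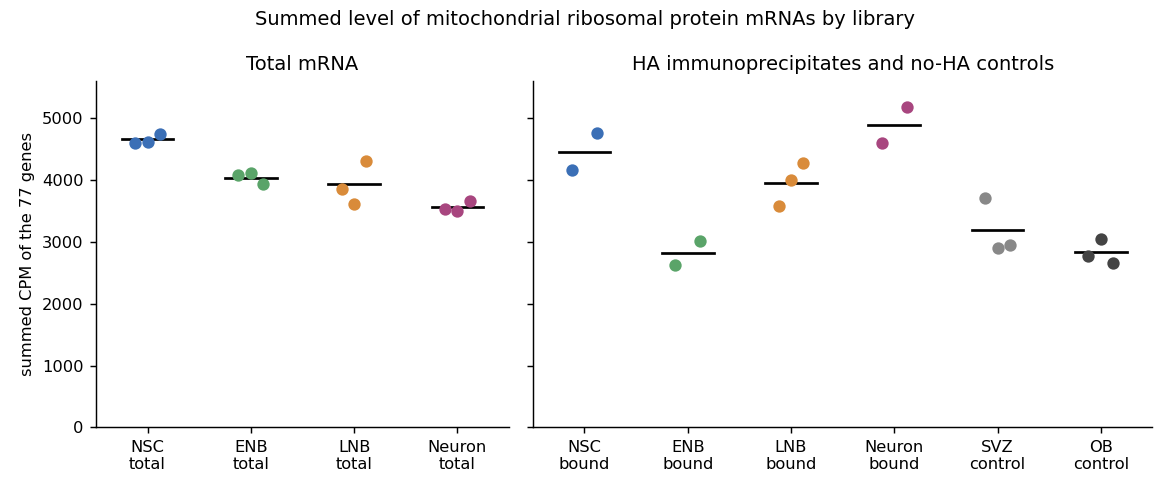
Points are libraries, bars are group means, and the vertical axis is the summed CPM of the 77 genes; total mRNA is on the left, ribosome-bound mRNA and no-HA controls on the right. ENB is the lowest ribosome-bound group, at 2813 CPM, near the level of both controls.

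Member by member, 49 of 76 genes had their highest stage mean in NSC total mRNA and 35 had their lowest in Neuron. The ratio of the highest to the lowest stage mean had a median of 1.57 and passed 2 for 10 genes. It was widest for Mrpl52 (4.33) and Mrpl34 (3.44) and narrowest for Mrps18a (1.04), a large-subunit paralog of bacterial S18. In ribosome-bound mRNA 72 of 76 genes were lowest in ENB, 48 were highest in Neuron and 23 in NSC. That ratio had a median of 1.92, passed 2 for 34 genes and was widest for Mrps16 (3.22), a small-subunit protein of bacterial type.

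From NSC to ENB in total mRNA, 2 members fell and none rose, both of the large subunit. Mrpl10, which anchors the stalk that recruits translation factors, had 56.5, 74.8 and 70.2 CPM in NSC and 40.9, 30.5 and 16.3 in ENB. Mrpl48, a mitochondria-specific protein, had 100.4, 101 and 101 CPM in NSC and 55.0, 53.8 and 50.5 in ENB. Neither gene's groups overlapped. Among all 76 members, 25 had every ENB library below every NSC library and 2 had every one above. Counts of members whose groups do not overlap were made for the members only, here and below. No share over all genes stands beside them, so they are not read as a result about the members. By the quasi-likelihood test of edgeR, adjusted over all genes by Benjamini-Hochberg, Mrpl10 changed by a log2 fold change of -1.20 ± 0.33 (SE; adjusted p = 0.0386) and Mrpl48 by -0.92 ± 0.22 (adjusted p = 0.0213). These 2 of 76 members (2.63%) stand against 10.1% of all genes called in this comparison, 4.95% higher and 5.12% lower. The median member log2 fold change was -0.21, with 61 of 76 below 0, and that of all genes was -0.01. Mrpl10 lost its call without any 1 of 5 of the 6 libraries (log2 fold changes from -1.43 to -0.91) and Mrpl48 without any 1 of 4 (NSC 3 and ENB 1 to 3), and no member was called without NSC 3, ENB 2 or ENB 3. A block for animals shared by ENB and LNB left 0 members called and a median of -0.22, and DESeq2 called 7 members, all lower. The shares of all genes called in these alternatives are not given. The span of Mrpl48 overlaps that of Rab6a by 727 bases, so reads there may belong to either gene.

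The partner proteins of Mrpl10 at the factor-binding stalk did not pass the test. Mrpl12, the stalk protein itself, had 93.5, 119 and 78.3 CPM in NSC and 69.4, 71.7 and 63.0 in ENB. Mrpl11, at the base of the stalk, had 51.5, 72.4 and 68.1 CPM in NSC and 60.6, 67.0 and 56.0 in ENB, which overlap. For Mrps12, part of the decoding centre, NSC held 45.2 to 50.1 CPM and ENB 25.04 to 41.1 (adjusted p = 0.263 by edgeR).

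From ENB to LNB in total mRNA edgeR called no member, where 3.77% of all genes were called, 2.8% higher and 0.966% lower. At an unadjusted p under 0.05 there was 1 member, and DESeq2 called 1, with the shares of all genes not given for either. Members had a median log2 fold change of -0.05, against 0.05 for all genes. Mrpl48 stayed low in LNB, at 61.5, 42.2 and 74.4 CPM. Mrpl10 stood at 39.4, 37.6 and 49.7 CPM in LNB, overlapping ENB. Stem cell markers varied widely among the LNB libraries, as given above, and their part in this step was not tested.

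From LNB to Neuron in total mRNA, 3 members fell and 1 rose, all of the large subunit. Mrpl52, a mitochondria-specific protein, had 70.5, 53.5 and 87.3 CPM in LNB and 27.5, 10.2 and 14.2 in Neuron. Its highest Neuron library lay below its lowest library of every earlier stage, and edgeR gave a log2 fold change of -2.02 ± 0.37 (SE; adjusted p = 0.00424), a call kept in all 13 alternatives tried for it. Mrpl34, of bacterial type, had 55.7, 62.9 and 81.7 CPM in LNB and 37.5, 27.2 and 11.4 in Neuron (-1.39 ± 0.39, adjusted p = 0.0343). Mrpl28, also of bacterial type, had 129, 109 and 118 CPM in LNB and 55.3, 71.0 and 93.3 in Neuron (-0.70 ± 0.21, adjusted p = 0.0466). Each of these last 2 calls was lost without any 1 of 5 of the 6 libraries, in Mrpl34 all but Neuron 1 and in Mrpl28 all but Neuron 3, with log2 fold changes from -1.52 to -1.05 and from -0.71 to -0.53.

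Mrpl48 moved the other way in this step. Its Neuron libraries held 115, 126 and 111 CPM against 42.2 to 74.4 in LNB, a log2 fold change of 0.99 ± 0.22 (SE; adjusted p = 0.0112 by edgeR), and the call was kept without each library in turn. Mrpl48 was thus high in stem cells and neurons and low in both neuroblast stages, with no overlap between the pairs of stages.

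The 4 called members of 76 (5.26%) stand against 14.7% of all genes called from LNB to Neuron, 5.33% higher and 9.34% lower. Without LNB 1, 2 or 3 or Neuron 2, 2 members were called. The median member log2 fold change was -0.09, and all genes together had -0.18. RLE scale factors moved both upward, to 0.08 and -0.01, and left 1 member higher and 1 lower, so the sign of the member median depends on the scaling while it stays above the median of all genes. By contrast 73 of 76 cytosolic ribosomal proteins, which build the ribosome of the cytoplasm, were called lower in this step, with a median of -1.71. RLE scaling gave 72 of them lower. Among mitochondria-specific members 18 of 30 log2 fold changes were above 0 and among those of bacterial type 16 of 45, a description with no test. The part of the stem cell markers, which varied widely among the LNB libraries, was not tested in this step either.

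**Figure D3:**
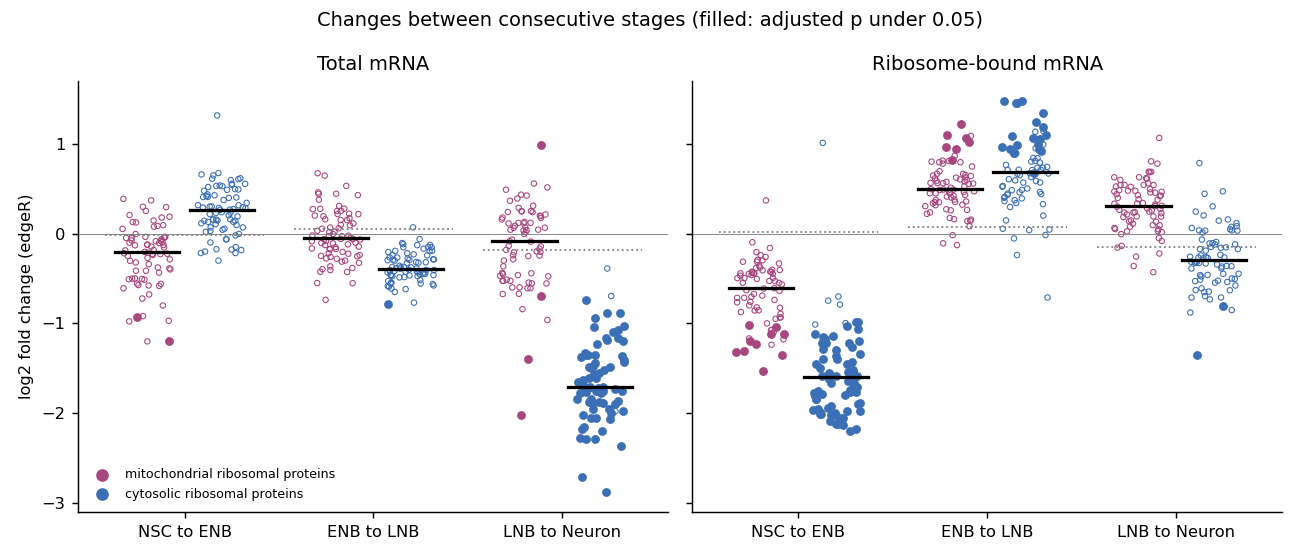
Each point is 1 gene's log2 fold change between consecutive stages, in total mRNA (left) and ribosome-bound mRNA (right), for mitochondrial (magenta) and cytosolic (blue) ribosomal proteins; filled points passed an adjusted p of 0.05, black bars are list medians and dotted lines the median of all genes. From LNB to Neuron in total mRNA the cytosolic median is -1.71 and the mitochondrial one -0.09.

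From NSC to ENB in ribosome-bound mRNA, 10 members fell and none rose, 5 of each subunit. The largest fall was that of Mrps6, a small-subunit protein of bacterial type, from 51.5 and 58.8 CPM in NSC to 19.1 and 19.0 in ENB. Its log2 fold change was -1.53 ± 0.30 (SE; adjusted p = 0.00714 by edgeR). Its span holds the gene Slc5a3, which overlaps it by 29138 bases, so reads of the 2 genes may be mixed. In the small subunit Mrps35 (-1.35 ± 0.31), Mrps28 (-1.30 ± 0.39), Mrps16 (-1.23 ± 0.32) and Mrps9 (-1.01 ± 0.24) also fell. In the large subunit the called members were Mrpl52 (-1.32 ± 0.35), Mrpl43 (-1.20 ± 0.29), Mrpl30 (-1.12 ± 0.24), Mrpl13 (-1.12 ± 0.25) and Mrpl47 (-1.04 ± 0.26). In ENB edgeR called no member against the SVZ controls. The ENB libraries lay all above these controls for 6 members and all below for 17. Mrpl52 had means of 37.8 CPM in NSC, 15.1 in ENB and 36.6 in the SVZ controls. The ENB side of these falls is therefore not shown to lie above the no-HA background. Mrps35, Mrps16, Mrpl52 and Mrpl30 did not pass the test for NSC against these controls. For these genes the NSC side is not shown to lie above that background either. For all 10 genes both ENB libraries lay below both NSC libraries, as they did for 59 of all 76 members. No such share over all genes is given here.

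These 10 of 76 members (13.2%) stand against 8.28% of all genes called in this comparison, 3.44% higher and 4.85% lower. Of the 76 members 75 had a log2 fold change below 0, with a median of -0.61, while the median of all genes was 0.02. Of the cytosolic ribosomal proteins 70 of 76 were called lower, with a median of -1.60. Leaving out single libraries left 6 calls without NSC 1, 1 without NSC 2, 0 without ENB 1 and 3 without ENB 2, with member medians from -0.82 to -0.52. A block for animals shared by ENB and LNB ties ENB to NSC only through LNB 3 and left 0 calls, among the members and among all genes, with a member median of -0.46. Within the libraries that share a second index (an index of the barcode pair, used here as a possible batch), the median was -0.54 with 72 of 76 below 0, from 1 ENB and 2 NSC libraries. Oligodendrocyte markers were about as far apart as 7333 to 7779 CPM in NSC and 18722 to 18917 in ENB, and their part in the fall was not tested.

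Other members, chosen for their roles, were lower in ENB without passing the test. Mrpl44, an RNase III-like protein of the large subunit, had 51.2 and 40.8 CPM in NSC and 21.2 and 19.7 in ENB (adjusted p = 0.0502). Mrpl58, a peptidyl-tRNA hydrolase that also rescues stalled ribosomes, had 67.1 and 59.8 CPM in NSC and 21.7 and 38.6 in ENB (adjusted p = 0.0866 by edgeR). Mrpl45, which lies at the exit tunnel and ties the ribosome to the inner membrane, had 60.9 and 69.9 CPM against 42.4 and 34.6 (adjusted p = 0.127 by edgeR). None of these 3 genes overlapped between the groups. Mrps36, no stable subunit, had 12.3 and 18.9 CPM in NSC and 12.96 and 14.99 in ENB, which overlap.

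From ENB to LNB in ribosome-bound mRNA, 7 members rose and none fell. Mrps28, a small-subunit protein, had 10.2 and 16.6 CPM in ENB and 29.0, 34.3 and 29.7 in LNB, a log2 fold change of 1.21 ± 0.36 (SE; adjusted p = 0.0368 by edgeR). Mrpl11, at the stalk base, had 23.5 and 36.2 CPM in ENB and 49.3, 63.0 and 59.2 in LNB (0.94 ± 0.26, adjusted p = 0.0248). Mrpl44 had 38.6, 40.6 and 49.3 CPM in LNB, above both ENB libraries (1.07 ± 0.33, adjusted p = 0.0407). The other called members were Mrps16 (1.09 ± 0.30), Mrpl57 (1.01 ± 0.31), Mrps35 (0.96 ± 0.29) and Mrpl20 (0.82 ± 0.23). Against the SVZ controls edgeR called no member in ENB. The ENB side of these rises is therefore not shown to lie above the no-HA background. Mrps16, Mrpl57 and Mrps35 also did not pass the test for LNB against the OB controls. In all 7 genes every LNB library lay above both ENB libraries, as in 56 of all 76 members, with no share over all genes to set beside it.

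The 7 of 76 members (9.21%) stand against 12.9% of all genes called from ENB to LNB, 6.81% higher and 6.05% lower. The median member log2 fold change was 0.49 with 73 of 76 above 0, against 0.08 for all genes. RLE scale factors gave medians of 0.35 and -0.06 and 1 call. Replicates 1 and 2 share their animals between ENB and LNB. A block for these animals gave a member median of 0.47 with 74 of 76 above 0 and no call, where 1217 genes were called in all, and a block for the replicate number gave 6 calls. No member was called without ENB 1, LNB 2 or LNB 3, 3 were without LNB 1 and 4 without ENB 2, and the medians stayed between 0.45 and 0.63. Tissue differs with stage in this step: oligodendrocyte markers summed to 18722 to 18917 CPM in ENB and to 1503 to 2095 in LNB, and their part was not tested. Between the no-HA controls of these tissues, OB against SVZ, the members had a median of -0.11.

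From LNB to Neuron in ribosome-bound mRNA edgeR called no member, where 4.13% of all genes were called, 0.378% higher and 3.75% lower. At an unadjusted p under 0.05 there were 12, and DESeq2 called 1, with the shares of all genes not given for either. The median member log2 fold change was 0.31 with 67 of 76 above 0, and the median of all genes was -0.15. Mrpl48 had 102, 122 and 109 CPM in LNB and 176 and 182 in Neuron, which do not overlap (adjusted p = 0.147 by edgeR). Mrps18c, the small-subunit paralog closest in role to bacterial S18, had 16.3 to 17.8 CPM in LNB but 17.6 and 53.5 in the 2 Neuron libraries. Its other paralogs, Mrps18a in the large subunit and Mrps18b in the small one, stood in Neuron at 65.6 and 60.5 CPM and at 33.97 and 41.9. No second index is shared between these groups, so no value within an index could be had.

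**Figure D4:**
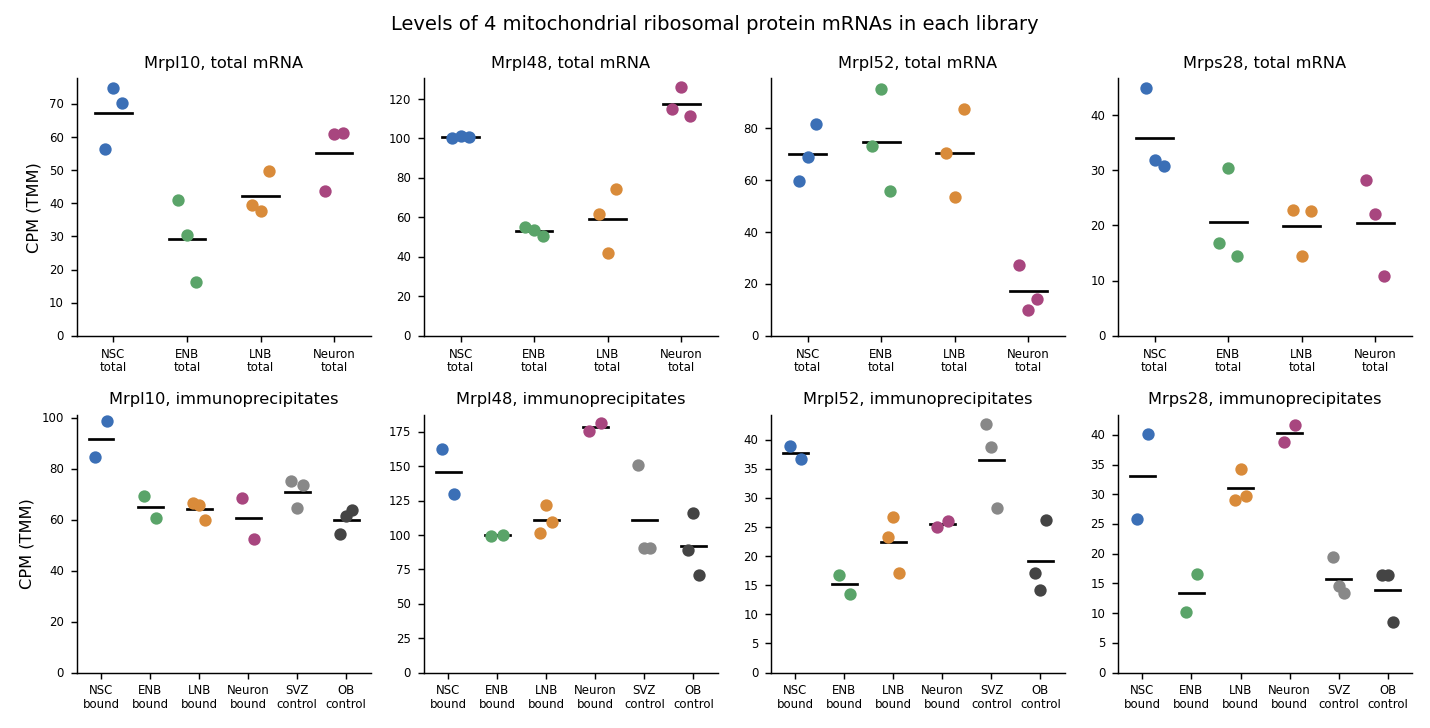
Points are libraries, bars are group means and the vertical axes are CPM, with total mRNA in the upper row and immunoprecipitates with no-HA controls in the lower row. Mrpl48 is low in both neuroblast stages of total mRNA, Mrpl52 is at 10.2 to 27.5 CPM in Neuron total mRNA, under every earlier stage of total mRNA, and Mrps28 is lowest in ribosome-bound ENB and the controls.

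Whether a step differed between ribosome-bound and total mRNA was tested as an interaction in 1 fit of the 21 libraries with HA or sorting. From NSC to ENB edgeR called no member, where 2.81% of all genes were called, 1.49% higher and 1.32% lower. At an unadjusted p under 0.05 there were 6, and DESeq2 called 2, with the shares of all genes not given for either. The median member difference was -0.24 in log2, against 0.20 for all genes and -1.65 for the cytosolic ribosomal proteins. Of the latter, 57 of 76 were called lower.

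From ENB to LNB 1 member, Mrpl57, rose in ribosome-bound relative to total mRNA, where 6.15% of all genes were called, 1.89% higher and 4.26% lower. Mrpl57, specific to the mitochondrial large subunit, had 35.9, 42.6 and 36.4 CPM in ENB total mRNA and 20.5, 33.0 and 24.6 in LNB. In ribosome-bound mRNA it had 20.2 and 14.6 CPM in ENB and 31.4, 32.9 and 40.9 in LNB. Neither pair of groups overlapped, and they lay in opposite directions. The interaction was 1.45 ± 0.40 in log2 (SE; adjusted p = 0.0373 by edgeR), and it was kept without LNB total 2 and lost without each of the other 10 libraries, at log2 values from 1.23 to 1.74. With RLE factors, no filter, expected counts, the second index or the replicate block it was lost too, with adjusted p from 0.0505 to 0.201 by edgeR. Both ribosome-bound ENB libraries lay under the SVZ controls of 32.4, 31.1 and 22.0 CPM, and Mrpl57 passed the test against the control neither in ENB nor in LNB. The span of Mrpl57 overlaps that of Ska3 by 64 bases. The median member difference was 0.38, against -0.09 for all genes, with 67 of 76 above 0.

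From LNB to Neuron 1 member, Mrpl52, rose in ribosome-bound relative to total mRNA, where 3.15% of all genes were called, 1.46% higher and 1.69% lower. Its total mRNA fell as given above, while its ribosome-bound mRNA had 23.3, 26.7 and 17.1 CPM in LNB and 25.02 and 26.03 in Neuron, which overlap. The OB controls held 17.1, 14.2 and 26.3 CPM, overlapping both groups, and Mrpl52 passed the test against them neither in LNB (adjusted p = 0.659 by edgeR) nor in Neuron (adjusted p = 0.347 by edgeR). The ribosome-bound side of this difference is therefore not shown to lie above the no-HA background. The interaction was 2.21 ± 0.48 in log2 (SE; adjusted p = 0.0209 by edgeR). It lost the call without LNB bound 1 or 3 or either Neuron bound library, at log2 values of 2.05 to 2.25. The median member difference was 0.35 with 68 of 76 above 0, against -0.10 for all genes. Of the cytosolic ribosomal proteins 45 of 76 were called higher.

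Against the no-HA controls, 59.2% of members were called for Neuron, 19.7% for NSC and 13.2% for LNB, all higher. Of all genes 11.6%, 8.75% and 7% were called higher, and 27.4%, 15.3% and 10.1% in either direction. Differences between these comparisons were not tested. NSC against the SVZ controls gave 15 members higher and none lower, 19.7% of 76, where 15.3% of all genes were called, 8.75% higher and 6.59% lower. Mrps31, specific to the small subunit of mitochondria, had 42.9 and 39.1 CPM in NSC and 13.8, 17.9 and 15.2 in the controls, a log2 fold change of 1.39 ± 0.27 (SE; adjusted p = 0.00373 by edgeR). Mrps6 had 26.2, 20.7 and 21.1 CPM in the controls, under both NSC libraries (1.28 ± 0.26, adjusted p = 0.0053). Next by size were Mrpl34 (1.38 ± 0.36), Mrpl9 (1.37 ± 0.29), Mrpl28 (1.28 ± 0.36), Mrpl14 (1.28 ± 0.33), Mrpl39 (1.27 ± 0.25) and Mrpl1 (1.19 ± 0.37), all of the large subunit. In the 15 genes no control library reached an NSC library. Among all 76 members, 40 had both NSC libraries above every control and 4 had both below, and the share over all genes is not given. With the second index as a term 3 members were called and the median was 0.34. The index shared by both NSC libraries and 1 control gave a median of 0.26 with 56 of 76 above 0. The median of the whole comparison was 0.53, against -0.14 for all genes. Calls numbered 5 without NSC 2, 6 without SVZ control 3, 9 without SVZ control 2 and 25 without SVZ control 1. Oligodendrocyte markers were lower in NSC than in the controls, 7333 to 7779 against 16503 to 21642 CPM, and their part was not tested.

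For ENB against the SVZ controls edgeR called no member, where 1.52% of all genes were called, 0.708% higher and 0.813% lower. At an unadjusted p under 0.05 there were 12, and DESeq2 called 4, 1 higher and 3 lower. The shares of all genes in these 2 settings are not given. Members had a median log2 fold change of -0.16, against -0.04 for all genes. Mrps28 had 10.2 and 16.6 CPM in ENB and 19.5, 14.5 and 13.3 in the controls, and Mrpl11 had 23.5 and 36.2 against 47.2, 34.3 and 31.0, so both overlapped. The 3 SVZ control libraries are shared with the NSC comparison. Here 62 of 76 cytosolic ribosomal proteins were called lower, with a median of -1.58.

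For LNB against the OB controls 10 members were higher and none lower, 13.2% of 76, where 10.1% of all genes were called, 7% higher and 3.06% lower. Mrps28 had 29.0, 34.3 and 29.7 CPM in LNB and 16.5, 16.5 and 8.51 in the controls (1.17 ± 0.31, adjusted p = 0.0296 by edgeR). Mrpl39, specific to the mitochondrial large subunit, had 46.3, 54.4 and 55.4 CPM against 22.6, 28.5 and 19.8 (1.14 ± 0.23, adjusted p = 0.0112). No control library reached an LNB library in these genes or in the other 8, which were Mrpl50, Mrpl14, Mrpl44, Mrpl11, Mrpl46, Mrpl22, Mrpl20 and Mrps18b. The same held for 53 of all 76 members, and the share over all genes is not given. The median was 0.50 and that of all genes -0.08. RLE scale factors moved these to 0.33 and -0.25 and left 2 calls. Without single libraries 0 calls were left without LNB 2 or LNB 3, 1 without OB control 1, 2 without OB control 3 and 3 without LNB 1. The block for animals shared with ENB left no call among the members and 17 among all genes, with a member median of 0.63. Oligodendrocyte markers summed to 1503 to 2095 CPM in LNB and to 2135 to 4661 in the controls, and their part was not tested. Within the shared second index of 3 LNB and 2 control libraries the median was 0.44 with 73 of 76 above 0.

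For Neuron against the OB controls 45 members were higher and none lower, 59.2% of 76, where 27.4% of all genes were called, 11.6% higher and 15.7% lower. By subunit these were 32 of 49 genes of the large and 13 of 26 of the small subunit. By origin they were 24 of 45 of bacterial type and 21 of 30 specific to mitochondria. Mrpl39 had 74.99 and 78.1 CPM in Neuron and 22.6, 28.5 and 19.8 in the controls, a log2 fold change of 1.69 ± 0.25 (SE; adjusted p = 0.000328 by edgeR). Mrpl11 had 85.0 and 90.2 CPM against 29.3, 30.0 and 32.3 (1.52 ± 0.25, adjusted p = 0.000661). Both Neuron libraries lay far above every control library in these genes. They are the 2 libraries whose label field reads total mRNA. They held 13316334 and 12793358 counts, and the other immunoprecipitates at most 9557093. What the label means for this comparison was not tested.

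Mrpl14 (1.60 ± 0.33), Mrps28 (1.54 ± 0.34), Mrpl36 (1.49 ± 0.40) and Mrps33 (1.38 ± 0.30) were among the next largest for Neuron against the OB controls. Mrps18c (1.8 ± 0.41) and Mrps30 (1.56 ± 0.35), a protein of the large subunit despite its name, rested on 1 Neuron library, with 17.6 and 53.5 CPM and with 33.8 and 81.4 CPM. Without Neuron 2 their log2 fold changes were 0.79 and 0.80, with adjusted p of 0.206 and 0.145 by edgeR. The 10 members called for LNB were all called here too, with the same control libraries in both comparisons. Of the 45 genes only Mrpl50 had overlapping libraries, at 37.2 and 71.5 CPM in Neuron and 18.4 to 38.2 in the controls. Among all 76 members, 65 had both Neuron libraries above every control, and the share over all genes is not given.

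The median member log2 fold change for Neuron against the OB controls was 0.86 with 74 of 76 above 0, and that of all genes was -0.21. Calls numbered 12 without Neuron 2 and between 33 and 42 without any other library, with medians of 0.77 to 0.91. The one index shared by a Neuron and a control library gave a median of 0.85 with 70 of 76 above 0. Mature neuron markers, 6 genes, summed to 13370 to 13632 CPM in Neuron and to 4698 to 7328 in the controls. Oligodendrocyte markers summed to 407 to 722 against 2135 to 4661. Their part in the difference was not tested. The cytosolic ribosomal proteins had 6 called higher, 10 called lower and a median of -0.06 in the same comparison.

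**Figure D5:**
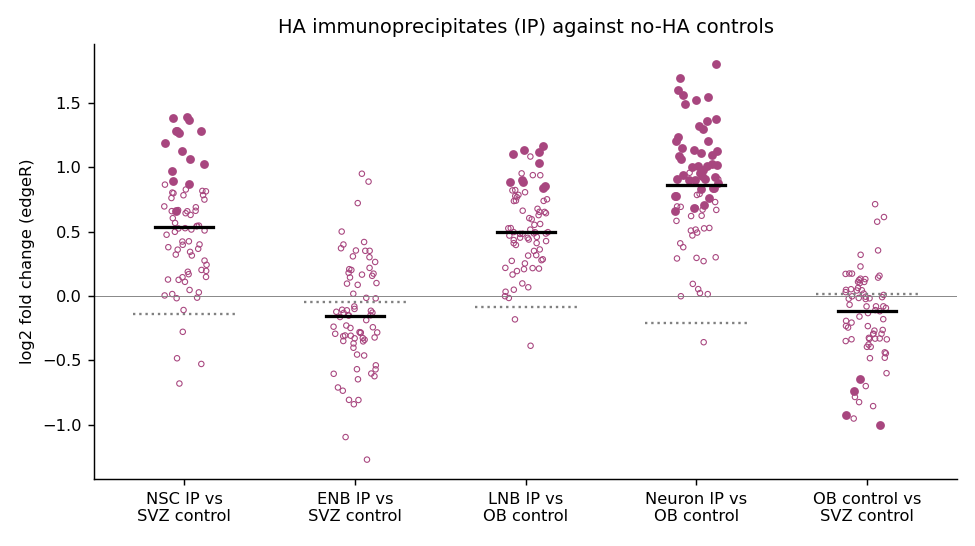
Each point is 1 of 76 genes with its log2 fold change of an HA immunoprecipitate over the no-HA control of its tissue, or of the OB over the SVZ control; filled points passed an adjusted p of 0.05, black bars are medians of the 76 genes and dotted lines medians of all genes. The medians are 0.53, -0.16, 0.50, 0.86 and -0.11 from left to right, with 15, 0, 10, 45 and 4 filled points.

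Between the controls, 4 members were lower in OB than in SVZ and none higher, 5.26% of 76 against 11.8% of all genes, 5.65% higher and 6.12% lower. Mrps21 had 92.5, 66.1 and 57.3 CPM in SVZ and 27.05, 36.3 and 44.5 in OB (-1.0 ± 0.26, adjusted p = 0.0174 by edgeR). The others were Mrpl52 (-0.93 ± 0.29), Mrpl30 (-0.74 ± 0.20) and Mrpl20 (-0.65 ± 0.20). No OB library reached an SVZ library in these 4 genes. Among all 76 members, 10 had every OB library below every SVZ library, and the share over all genes is not given. Oligodendrocyte markers summed to 2135 to 4661 CPM in OB and to 16503 to 21642 in SVZ, and their part was not tested. No member was called without OB control 1 or 2, 1 was without SVZ control 1 and 2 were without SVZ control 2.

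A set of 21 members passed the test in none of the 14 comparisons, among them Mrpl12, Mrpl58, Mrps18a and Mrps36. Mrpl14, Mrpl39 and Mrps28 were called against the control in NSC, LNB and Neuron alike.

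Mrpl53 could be tested on the expected counts, rounded. There it was higher in Neuron ribosome-bound mRNA than in the OB controls, by 1.14 ± 0.23 in log2 (SE; adjusted p = 0.00288 by edgeR). Its TPM was 179 and 255 in ribosome-bound Neuron and 79.4 to 106 in the OB controls. In ENB it was lower than in the SVZ controls, by -1.06 ± 0.25 (adjusted p = 0.0372), at 70.3 and 70.9 TPM against 89.2 to 114. It also rose from ENB to LNB in ribosome-bound relative to total mRNA (1.47 ± 0.41, adjusted p = 0.046), and it was lower in OB than in SVZ controls (-0.74 ± 0.21, adjusted p = 0.0374).

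Proteins of the mitochondrial ribosome with other symbols, 5 genes, were tested beside the members. Chchd1, of the small subunit, fell from LNB to Neuron in total mRNA (-0.79 ± 0.19, adjusted p = 0.0161 by edgeR) and from NSC to ENB in ribosome-bound mRNA (-1.47 ± 0.31, adjusted p = 0.0107), and rose from ENB to LNB there (1.04 ± 0.29, adjusted p = 0.0261). In these steps 9.34%, 4.85% and 6.81% of all genes were called in the same direction. Of the 5 such genes tested, 4 were higher in Neuron immunoprecipitates than in the OB controls, where 11.6% of all genes were higher, led by Chchd1 (1.38 ± 0.27), Aurkaip1 (1.09 ± 0.27) and Dap3 (0.87 ± 0.18).

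Of the factors that work with the mitochondrial ribosome, 1 of 12 translation factors was called from NSC to ENB in total mRNA (8.33%, against 10.1% of all genes) and 1 in ribosome-bound mRNA (against 8.28%). Of these 12 translation factors, Gfm1, the elongation factor that moves the ribosome along, fell from NSC to ENB in total mRNA (-1.36 ± 0.37, adjusted p = 0.0396 by edgeR) and in ribosome-bound mRNA (-1.17 ± 0.32, adjusted p = 0.0348). Gfm2, which recycles the ribosome, fell from ENB to LNB in ribosome-bound mRNA (-1.45 ± 0.30, adjusted p = 0.00423). Tufm, which delivers aminoacyl-tRNA, was higher than the control in NSC (1.34 ± 0.27), LNB (1.03 ± 0.24) and Neuron (1.3 ± 0.26). Guf1 was lower than the control in LNB (-1.32 ± 0.32) and Neuron (-1.21 ± 0.36).

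Among 26 assembly factors 1 was called from NSC to ENB in total mRNA (3.85%, against 10.1% of all genes) and 2 from LNB to Neuron (7.69%, against 14.7%). Tfb1m, a methyltransferase of the small ribosomal RNA, rose from NSC to ENB in total mRNA (1.72 ± 0.34, adjusted p = 0.00959 by edgeR) and fell from LNB to Neuron (-1.71 ± 0.34, adjusted p = 0.00617). Trub2, which modifies RNA, fell in the latter step too (-1.20 ± 0.28). From NSC to ENB in ribosome-bound mRNA Mpv17l2 (-1.62 ± 0.38) and Gtpbp10 (-1.53 ± 0.42) fell. Of 17 mitochondrial aminoacyl-tRNA synthetases 1 (5.88%) and 2 (11.8%) were called in these steps of total mRNA. Fars2, which charges phenylalanine tRNA, fell in total mRNA from NSC to ENB (-1.61 ± 0.30) and from LNB to Neuron (-1.16 ± 0.30), and Cars2 fell in the latter (-1.27 ± 0.35). Of 13 genes for mitochondrial transcription and mRNA handling, 5 (38.5%) changed in Neuron against the OB controls, where 27.4% of all genes were called. Mterf2 (1.15 ± 0.33), Tfam (0.83 ± 0.27) and Slirp (0.70 ± 0.24) were higher, and Pnpt1 (-1.54 ± 0.44) and Fastk (-1.14 ± 0.37) were lower.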

How the data were processed

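Poly(A) RNA was amplified by Smart-seq2 per the labels' protocols, and RSEM 1.2.21, Bowtie2 2.2.6 and GRCm38 are named in the submitters' processing notes. The authors deposited raw counts per Ensembl gene (the counting tool is not given in the sources used here), expected counts that are not whole, and TPM values. All 27 libraries entered, grouped by their titles into 10 groups, and 0 columns of values had no sample. Symbols come from the GRCm38.p6 annotation, which named 44548 of the 45195 genes. Strand use in the counting is not stated.

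Raw counts were tested in R 4.3.3 with edgeR 4.0.16: TMM factors, filterByExpr, quasi-likelihood F test, Benjamini-Hochberg adjustment over all genes tested and a threshold of 0.05. One fit held the 12 total libraries, one the 15 immunoprecipitates and one the 21 libraries with HA or sorting for the interaction, which gave 14 comparisons. Levels are CPM with the TMM factors of the fit, and standard errors are those implied by the F statistic. The fits were run on simulated data with changes larger than those of the members. That run does not show how well changes of the size seen here are found. Alternatives were RLE factors, no filter, DESeq2 1.42.0, rounded expected counts, the second index as a term, replicate blocks and leaving out each library.

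In ribosome-bound mRNA, ENB and LNB libraries numbered 1 and 2 share their animals, per the labels. In total mRNA animals are shared under different numbers, between ENB 2 and LNB 3 and between ENB 3 and LNB 2. Correlations of same-numbered libraries after removing group means lay between -0.11 and 0.066 for 18 pairs of total libraries and between -0.10 and 0.099 for 33 pairs of immunoprecipitates. For the pairs that share animals the correlations were 0.091 and -0.013 in ribosome-bound mRNA and 0.046 and 0.053 in total mRNA. Nothing in the labels says that other libraries of a group come from separate litters or batches, so p-values measure the spread between these libraries.

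Named genes are, for each comparison, the 8 called members with the largest change in each direction, 12 members chosen for their roles, the 5 highest and 5 lowest by TPM, and up to 3 called genes per direction of each pathway list; genes given beyond these were chosen after their values were seen. The members, lists and rules were chosen with earlier results of these data known. Values within 1 second index, as differences of mean log2(CPM + 0.5), were added after the data were seen.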

Additional observations from a re-analysis of the deposited data

Results flagged for a closer look

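For 2 members the change between stages differed between ribosome-bound and total mRNA by the interaction test of edgeR. Each was 1 of 76 members in its step, against 6.15% of all genes from ENB to LNB and 3.15% from LNB to Neuron. No member was called from NSC to ENB, against 2.81% of all genes. From ENB to LNB the difference for Mrpl57 was 1.45 in log2, with total mRNA lower and ribosome-bound mRNA higher in every LNB library than in every ENB library. With RLE factors, without the filter, with expected counts, with the second index as a term, with the replicate block or without any 1 of 10 of the 11 libraries the call was lost. Both ENB immunoprecipitates, at 20.2 and 14.6 CPM, lay under the SVZ controls without HA, at 32.4, 31.1 and 22.0. From LNB to Neuron the difference for Mrpl52 was 2.21, with total mRNA lower in every Neuron library and ribosome-bound mRNA overlapping. The OB controls without HA held 17.1, 14.2 and 26.3 CPM of Mrpl52, overlapping both ribosome-bound groups, which did not pass the test against them. The groups hold 2 or 3 libraries each, so no library was tested as standing apart within its group.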

How the results depend on the processing

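None of the called members named for a comparison changed direction under an alternative run for it. Uncalled members and genes of the pathway lists were not followed through the alternatives. DESeq2 called 7 members from NSC to ENB and 1 from ENB to LNB in total mRNA, and 18 from NSC to ENB and 1 from LNB to Neuron in ribosome-bound mRNA. It called 2, 5 and 2 in the 3 interactions in stage order and 4 for ENB against the SVZ control. RLE factors left 2 from LNB to Neuron in total mRNA, 1 from ENB to LNB in ribosome-bound mRNA, 0 in the interaction from ENB to LNB, 2 for LNB against the OB control and 2 between the controls. Without the filter there were 2 from LNB to Neuron in total mRNA, 17 from NSC to ENB in ribosome-bound mRNA, 0 in the interaction from ENB to LNB, 1 for ENB against the SVZ control and 1 between the controls. Expected counts gave 2 in the interaction from ENB to LNB and 2 for ENB against the SVZ control. With the second index as a term the counts were 1 from NSC to ENB and 2 from LNB to Neuron in total mRNA, 12 from ENB to LNB and 1 from LNB to Neuron in ribosome-bound mRNA, 0 in the interaction from ENB to LNB, 3 for NSC against the SVZ control and 1 between the controls, and the interaction from LNB to Neuron could not be fitted. The share of all genes called in each of these settings is not given, so the counts do not set the members apart from other genes. The cause of these shifts was not tested.

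The replicate block by number gave 1 member from NSC to ENB and 2 from LNB to Neuron in total mRNA, 0 in the interaction from ENB to LNB and 2 between the controls. The replicate block by shared animal gave 0 from NSC to ENB and 1 from LNB to Neuron in total mRNA, 0 from NSC to ENB and 0 from ENB to LNB in ribosome-bound mRNA, 0 for LNB against the OB control and 1 between the controls. By its construction both ribosome-bound ENB libraries then carry a term of their own, and ENB is tied to the other groups only through LNB replicate 3. The pairing moved no other count by over 1.5 times.

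Leaving out 1 library at a time, the counts were 0 to 1, 0 to 1 and 2 to 4 in the 3 steps of total mRNA. They were 0 to 6, 0 to 4 and 0 to 1 for ribosome-bound mRNA and 0 to 0, 0 to 5 and 0 to 2 for the interactions. Against the controls they ran from 5 to 25 for NSC, 0 to 0 for ENB, 0 to 10 for LNB and 12 to 42 for Neuron, and from 0 to 4 between the controls. Where this leaves 1 library in a group, that library is assumed to vary like the other groups.

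Groups of 2 or 3 libraries limit all of these calls, and a member that missed the threshold is not shown to be unchanged. Counts with a block or without a library are mostly given with no share of all genes in the same setting.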

Other observations

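By the RefSeq annotation, the span of 24 of the 77 genes overlaps another gene. One of these pairs joins the mitochondrial ribosome to mitochondrial DNA replication: Mrpl43 and Twnk, the replicative helicase, share 780 bases. Twnk fell from LNB to Neuron in total mRNA by 3.81 on the log2 scale (SE 0.97, adjusted p = 0.0225 by edgeR), while Mrpl43 had 64.7, 62.0 and 77.1 CPM in LNB and 59.8, 34.9 and 33.1 in Neuron, where the groups do not overlap but the test was not passed. Reads from the shared stretch cannot be assigned to either gene where strand was not used.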
